A study of Mus musculus with 15 samples.

Results

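Hemidesmosome and basal keratinocyte adhesion genes are described here by 9 members, the integrin subunits Itga3, Itga6, Itgb1 and Itgb4, the laminin chains Lama3 and Lamb3, the plakins Dst and Plec, and the keratin Krt15. They were picked by gene symbol, with earlier results of these data known, and make up 9 of the 24027 symbols that the deposited tables share. All 9 were tested in every table. Total RNA of skin was sequenced from female SKH1 mice, a hairless strain, which from 6 to 8 weeks of age received 10 weeks of ultraviolet B at 500 J/m2, given 5 days a week, a course that gives actinic keratoses, the keratinocyte lesions that can precede squamous cell carcinoma. Control mice received 0.25 g of placebo cream on 5 days per week, and treated mice received 0.25 g of GZ21T cream on the same schedule. The 15 libraries form 5 groups of 3, namely the lesion (lesional), skin beside it (perilesional), irradiated skin elsewhere (non-lesional) and skin kept from UV (non-UV exposed), all of placebo mice, and the lesion of GZ21T mice. All mice received a cream, and skin of mice without cream was not analysed here. The tables used here hold fold changes and test results and no values per library, so the spread is given as the SE of each log2 fold change. The headers of the tables call the non-UV-exposed group back, and where on the body the other sites lay is not given in the sources used here, so exposure and body site cannot be told apart in comparisons with that group. The labels number the libraries 1 to 3 in each group, and the same control numbers recur at all 4 placebo sites, so these sites may come from the same mice and may not be independent groups, a pairing the tables do not allow to be used. The labels do not state that each number is a separate mouse, so the p-values speak only to the variation among these libraries, part of which may be technical.

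Hemidesmosomes are the rivets that hold basal keratinocytes to the basement membrane. The integrin pair of Itga6 and Itgb4 spans the cell membrane and binds, on the outside, a laminin that contains the products of Lama3 and Lamb3. On the inside, plectin (Plec) and the epithelial form of dystonin (Dst, also known as BPAG1) tie the complex to the keratin filaments. The pair of Itga3 and Itgb1 binds the same laminin but connects to actin through focal adhesions. Krt15 is a keratin of basal cells and of the hair follicle bulge, the niche of follicle stem cells. In mouse and human skin, loss of several of these proteins causes blistering.

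Of the adhesion genes proper, Dst had the largest difference from non-UV-exposed skin, and its products differ with where transcription starts. GENCODE M21 on GRCm38 places Dst on chromosome 1 from 33908225 to 34308661 on the + strand and lists 14 coding transcripts with 11 different first bases, from 776 to 23279 bases when spliced. The coding transcripts Dst-213, Dst-217 and Dst-215, of 8788, 8961 and 16340 bases, all begin inside the gene at 34160330. The deposited values are per gene and do not separate these forms. The RefSeq promoter entries used here cover 4 of the 9 members with 7 starts, on build GRCm38.p6. Whether RefSeq holds entries for the other members cannot be read from this count. The 250 bases before each of the 2 Dst starts are shown because they differ in composition. GC boxes (GGGCGG on either strand) are in capitals.
Dst, chr1:34011345-34011594, + strand: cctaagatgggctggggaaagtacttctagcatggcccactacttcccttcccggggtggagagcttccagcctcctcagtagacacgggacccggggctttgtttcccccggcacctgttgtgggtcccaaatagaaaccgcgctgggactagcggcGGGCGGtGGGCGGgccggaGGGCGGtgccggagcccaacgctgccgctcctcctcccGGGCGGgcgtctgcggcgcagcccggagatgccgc
Dst, chr1:34160010-34160259, + strand: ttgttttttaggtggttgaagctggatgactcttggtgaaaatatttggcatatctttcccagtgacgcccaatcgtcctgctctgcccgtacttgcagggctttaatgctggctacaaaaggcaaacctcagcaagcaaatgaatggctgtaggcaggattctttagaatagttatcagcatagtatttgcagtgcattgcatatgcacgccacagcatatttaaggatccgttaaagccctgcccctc
Both windows lie inside the gene, which begins at 33908225. The first window holds 4 GC boxes, at 92, 85, 73 and 35 bases before the start, and 68.8% of its bases are G or C. The second window holds none, and 45.2% of its bases are G or C, against a median of 52.4% over all promoters of this length. Of 32851 promoters, 32.7% hold a GC box. Neither window holds the AP-1 letters TGANTCA, found in 6.75% of promoters, the TEAD letters GGAATG, found in 12.6%, or the TATA box TATAAA, found in 12.4%. All motifs were searched on both strands. These matches describe the letters in the windows and were not related to binding or to the expression values.

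The first comparison set non-lesional irradiated skin against non-UV-exposed skin. All 9 members had a lower estimate in irradiated skin, and 1 passed the test. Krt15 fell by 2.00 on the log2 scale (SE 0.46, adjusted p 0.0030) per the authors' deposited table, which is 3.99-fold lower with a 95% interval from 2.13 to 7.48. In that comparison 1.66% of 14124 genes passed. The median log2 fold change of the members was -0.53 and that of all genes -0.02 from the authors' deposited table. Dst had the next largest estimate, -0.89 (SE 0.33, adjusted p 0.19), per the authors' deposited table. The 4 integrins lay between -0.55 and -0.20 with adjusted p from 0.67 to 0.95, per the authors' deposited table. Both laminin chains stood near these, Lama3 at -0.53 (SE 0.38) and Lamb3 at -0.52 (SE 0.42) per the authors' deposited table. Plec, the other plakin, was at -0.32 (SE 0.21, adjusted p 0.69) per the authors' deposited table. A smaller amount of RNA per cell and a smaller share of basal or follicle cells cannot be told apart in bulk skin samples.

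Perilesional skin, the irradiated skin next to a lesion, was then compared with non-lesional irradiated skin. None of the 9 members passed the adjusted threshold of DESeq2 per the authors' deposited table, where 0.112% of 15201 genes did. At an unadjusted p under 0.05 there was 1 member, Dst, and 7.83% of all genes. Dst stood at -0.68 (SE 0.33, adjusted p 0.61) and Lama3 at -0.67 (SE 0.38, adjusted p 0.70) per the authors' deposited table. The other laminin chain and the integrins Itga3, Itga6 and Itgb4 had estimates between -0.43 and -0.31 per the authors' deposited table. Itgb1 was at 0.12 (SE 0.37) and Krt15 at 0.15 (SE 0.46, adjusted p 0.98) per the authors' deposited table. For Krt15 the 95% interval runs from -0.76 to 1.05 on the log2 scale, so these data bound the further change near a lesion only loosely.

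**Figure D1:**
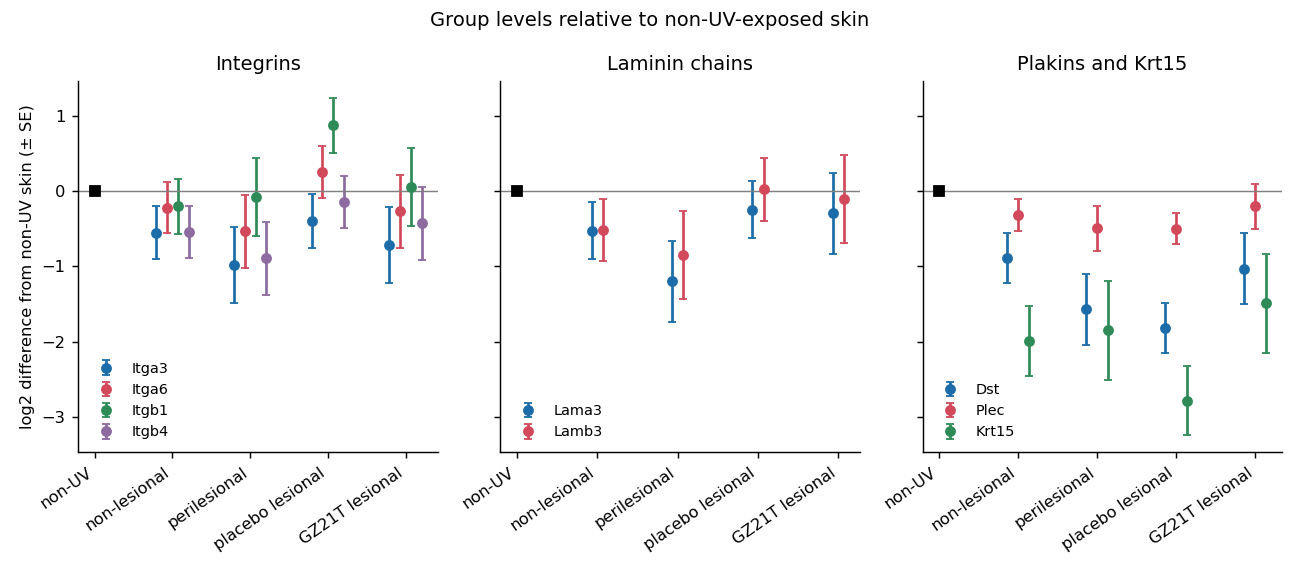
Log2 difference of each member from non-UV-exposed skin (vertical axis, ± SE) in the 5 groups of 3 libraries, with the reference drawn as a square at 0. Bars for perilesional and GZ21T lesional skin are upper bounds of the SE. Krt15 lies lowest in every irradiated group and reaches -2.78 in placebo lesions, while Itgb1 lies highest in placebo lesions at 0.87.

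Placebo lesions against non-UV-exposed skin gave the largest differences of Krt15 and Dst among the comparisons made. Krt15 fell 6.89-fold (log2 fold change -2.78, SE 0.46, adjusted p 4.7e-07, 95% interval 3.68 to 12.9-fold) per the authors' deposited table. Dst fell 3.53-fold (log2 fold change -1.82, SE 0.33, adjusted p 5.4e-06, 95% interval 2.25 to 5.53-fold) per the authors' deposited table. These 2 of 9 members stand beside 18.3% of 15201 genes that passed, so the count is close to that of genes in general. Ranked from the lowest estimate, Krt15 was at place 123 and Dst at place 381. Both calls depend on the null spread taken for the test. When the Wald statistics were divided by their robust SD over all genes, 1.924, the adjusted p became 0.47 for Krt15 and 0.60 for Dst, and 14 genes in all were called. That SD includes the genes that passed, so it cannot tell a wide null from many true differences.

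None of the 4 integrins passed in lesions, and their estimates had both signs. Itgb1, the shared partner of many alpha chains, had the highest estimate of the members, 0.87 (SE 0.37, adjusted p 0.079, 1.83-fold), per the authors' deposited table. Its laminin-binding partner Itga3 was at -0.40 (SE 0.36, adjusted p 0.47) per the authors' deposited table. The hemidesmosome pair was close to 0, with Itga6 at 0.25 (SE 0.34) and Itgb4 at -0.15 (SE 0.34) per the authors' deposited table. For Itgb4 the 95% interval from -0.82 to 0.52 has its lower end at 1.77-fold lower. The laminin chains were near 0 as well, Lama3 at -0.25 (SE 0.38) and Lamb3 at 0.02 (SE 0.42) per the authors' deposited table. Centring on the median of all genes turned Lamb3 to -0.06. Plec, the plakin that binds Itgb4 from the inside, was at -0.50 (SE 0.21, adjusted p 0.075) per the authors' deposited table, and after centring it passed with an adjusted p of 0.034.

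**Figure D2:**
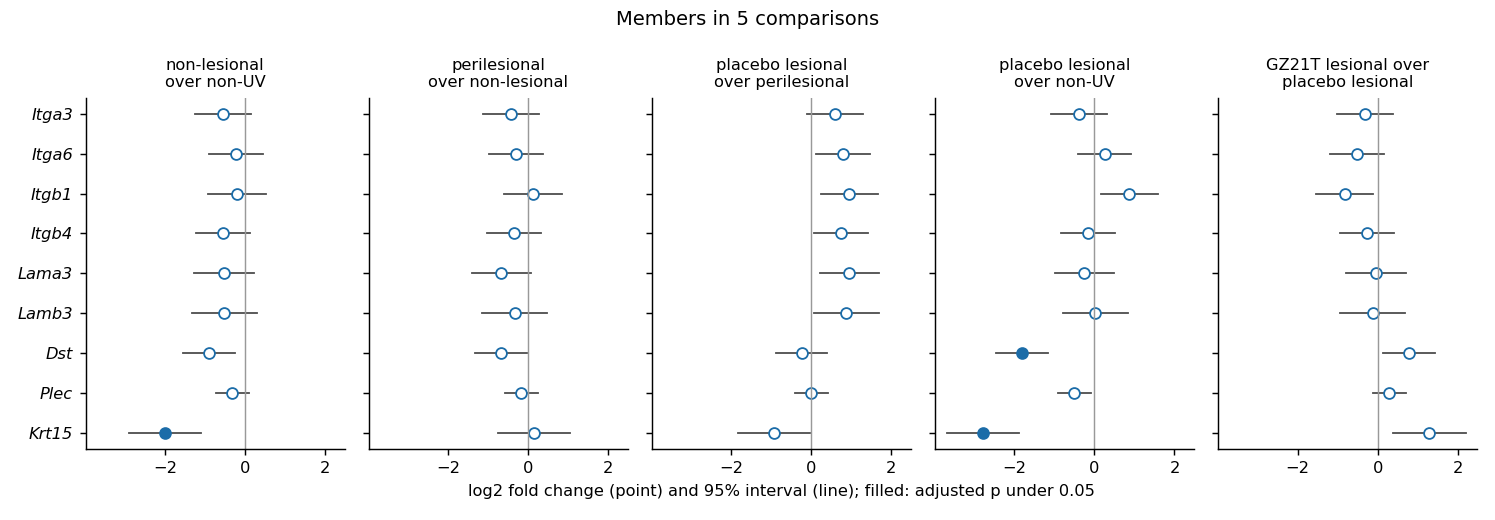
Log2 fold change (point) and 95% interval (line) of the 9 members in 5 comparisons, with filled points where the adjusted p is under 0.05. Krt15 is filled in non-lesional and in lesional skin against non-UV skin, Dst is filled in the latter, and no member is filled in the other 3 panels.

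Lesions were compared with the perilesional skin around them from the deposited values, since no table holds this contrast. None of the 9 members passed after adjustment, where 0.533% of 15187 genes did. Without adjustment 6 members were under 0.05, against 10.5% of all genes, and 5 of these were higher in lesions, against 6.99% of all genes. The 5 were 2 laminin chains and 3 integrins, all with estimates between 0.75 and 0.95. Itgb1 was 0.95 (SE 0.37, adjusted p 0.27) higher and Lama3 0.95 (SE 0.38, adjusted p 0.30) higher on the log2 scale. Lamb3 stood at 0.87 (SE 0.42), Itga6 at 0.79 (SE 0.34) and Itgb4 at 0.75 (SE 0.34). Itga3 had a smaller estimate of 0.59 (SE 0.36, unadjusted p 0.097). Krt15 had the opposite sign, -0.93 (SE 0.46, adjusted p 0.46), Dst was at -0.25 (SE 0.33) and Plec at -0.00 (SE 0.21). The median of the members was 0.75 and that of all genes 0.05. Positive estimates were not particular to the members. They were also found for 7 of 7 basal keratinocyte markers (median 0.47) and 19 of 22 focal adhesion genes (median 0.31). Without adjustment 3 and 9 of these were higher and 0 lower, and none passed after adjustment. All 8 suprabasal markers tested had negative estimates. The interval of Plec, -0.41 to 0.41 on the log2 scale, is the narrowest among the members.

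**Figure D3:**
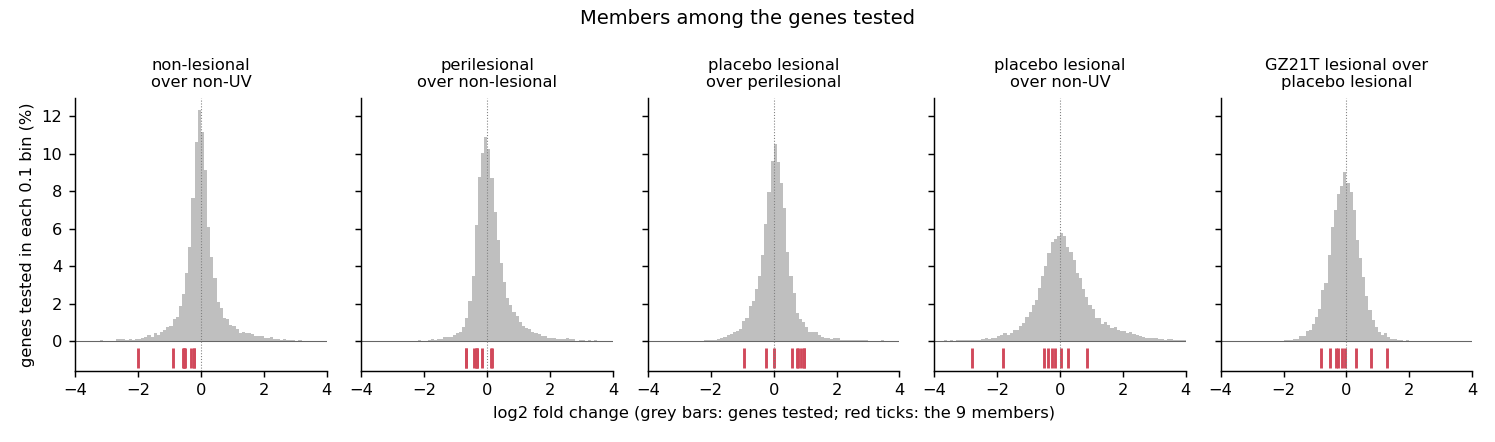
Share of tested genes in each 0.1 bin of log2 fold change (grey bars, percent) with the 9 members as red ticks, in 5 comparisons. In lesional over perilesional skin 6 ticks lie between 0.59 and 0.95, right of the centre of the grey bars, and in lesional over non-UV skin the ticks of Krt15 and Dst lie at -2.78 and -1.82.

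GZ21T lesions were compared with placebo lesions to see how the cream bears on these genes. None of the 9 members passed DESeq2's adjusted threshold per the authors' deposited table, where 3.61% of 10899 genes did. At an unadjusted p under 0.05 there were 3 members, against 22.9% of all genes. Krt15 had the highest estimate, 1.29 (SE 0.46, adjusted p 0.076), per the authors' deposited table, 2.45-fold with a 95% interval from 1.31 to 4.60. Of the genes tested there 99.1% had an estimate at or below that of Krt15. Dst was at 0.79 (SE 0.33, adjusted p 0.13) and Itgb1 at -0.82 (SE 0.37, adjusted p 0.15) per the authors' deposited table. Itga6 stood at -0.52 (SE 0.34, adjusted p 0.36), Itga3 at -0.32 and Itgb4 at -0.28 per the authors' deposited table. Plec was at 0.29 (SE 0.21), Lamb3 at -0.13 (SE 0.42) and Lama3 at -0.05 (SE 0.38) per the authors' deposited table, and centring turned Lama3 to 0.01. The placebo lesion libraries enter this comparison and that with non-UV skin, so opposite signs in the pair are not independent, and a difference between them was not tested.

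GZ21T lesions were also set against placebo skin without lesions. Against non-lesional irradiated skin none of the 9 members had an unadjusted p under 0.05, against 3.31% of genes, and 0% of genes passed after adjustment. The estimates ran from -0.16 for Itga3 to 0.51 (SE 0.46) for Krt15. Against non-UV-exposed skin Krt15 was at -1.49 (SE at most 0.65, adjusted p 0.67) and Dst at -1.03 (SE at most 0.47, adjusted p 0.71). No member passed there, where 0.382% of genes did, and without adjustment these 2 members and 5.76% of genes were under 0.05. With each group taken to hold an equal share of the deposited variances both genes passed, with adjusted p 0.038 for Krt15 and 0.047 for Dst. The cream and the lesion site differ together in these contrasts, so their parts cannot be told apart.

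The remaining pairs of placebo sites gave no call under the upper bound of the SE. Perilesional against non-UV-exposed skin had 0.625% of genes passing and 9.67% under 0.05 without adjustment, the latter with 4 members, all lower. Krt15 was at -1.85 (SE at most 0.65, adjusted p 0.18), Dst at -1.57 (SE at most 0.47, adjusted p 0.085), Lama3 at -1.20 (SE at most 0.54) and Itga3 at -0.99 (SE at most 0.50). With equal shares of the variances, Dst (adjusted p 0.00022), Krt15 (0.0024) and Lama3 (0.025) passed. Lesional against non-lesional irradiated skin had 0% of genes passing and 7% under 0.05 without adjustment. The 2 members among the latter were Itgb1 at 1.07 (SE at most 0.52, adjusted p 0.69) and Dst at -0.93 (SE at most 0.47, adjusted p 0.71).

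The order of the 5 groups differed among the members. Perilesional skin had the lowest estimate for 5 members, the integrins Itga3, Itga6 and Itgb4 and the laminin chains Lama3 and Lamb3. Placebo lesional skin was lowest for 3 intracellular members, Dst, Plec and Krt15, and non-lesional skin was lowest for Itgb1. For Plec this was a tie with perilesional skin, with a gap of 0.00084 (SE 0.21). Non-UV-exposed skin was highest for 6 members, and placebo lesional skin was highest for Itga6, Itgb1 and Lamb3. From the lowest to the highest group Krt15 spanned 2.78 on the log2 scale, Dst 1.82, Lama3 1.20, Itgb1 1.07 and Plec 0.50, with the others between 0.79 and 0.99. Most neighbours in these orders did not differ beyond their spread. Of 36 gaps between neighbouring groups 3 were over 2 SE. These were Itgb1 from GZ21T to placebo lesions (0.82), Dst from non-lesional to non-UV-exposed skin (0.89) and Krt15 from GZ21T lesions to non-UV-exposed skin (1.49). Their adjusted p were 0.15 and 0.19 per the authors' deposited table and 0.67 for the derived Krt15 comparison, so none passed. Where an SE is an upper bound, a gap under 2 SE does not show equal levels. The precision differed among genes, from an SE of 0.209 for Plec to 0.463 for Krt15, and a member's SE differed between tables by a ratio of at most 1.00227.

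Over the 4 deposited log2 fold changes, the closest pair of members was Itgb4 and Lamb3, with a root mean square difference of 0.115, and the next was Itga3 and Itgb4 with 0.131. The SE of each gene is wider than these distances, and of 10898 other genes 1885 lay within 1 SE of Itgb4 and 4364 within 1 SE of Lamb3. The nearest to Itgb4 were Utp14b (0.0728), Lamb3, Ptrf, Nsmce2 and Adk, and the nearest to Lamb3 were Itgb4, Cetn3, Sfr1, Thoc1 and Lrrfip2, up to 0.128. Krt15 was more isolated, with 1 gene within 1 SE, Ackr2 (0.430). Trpm6 (0.499), Cdkn1c (0.503), Ccl6 (0.525) and Pik3c2g (0.567) followed. The farthest pair of members was Itgb1 and Krt15 at 2.29. These distances rest on 4 comparisons that share groups and are descriptions only.

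Of the other genes of this adhesion system, 66 were tested in placebo lesions against non-UV-exposed skin, and 11 rose and 6 fell, beside the 18.3% of all genes that passed in that comparison (1543 higher and 1242 lower of 15201). None of the 17 passed when the null spread described above was used. Among 7 hemidesmosome partners, 2 fell and 0 rose, with a median of -0.59 against 0.08 for all genes. Frem2, a protein of the basement membrane zone, stood at -1.89 on the log2 scale (SE 0.50, adjusted p 0.0031) per the authors' deposited table. Col17a1, the transmembrane collagen of the hemidesmosome, was 2.00-fold lower (adjusted p 0.047) per the authors' deposited table, and lost its call with no filter on low counts (adjusted p 0.059). The tetraspanin Cd151 was at 0.34 (SE 0.31, adjusted p 0.48) per the authors' deposited table. In GZ21T over placebo lesions Col17a1 and Cd151 were at 0.16 (SE 0.38) and -0.46 (SE 0.32) per the authors' deposited table.

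Integrins outside the epidermal laminin receptors were the list with the most calls in lesions, 6 of 13 higher and 0 lower, with a median of 0.75. This and the list counts below stand beside 1543 higher and 1242 lower of all 15201 genes tested, 18.3% in either direction. Itga7, a laminin receptor best known from muscle, stood at 2.96 on the log2 scale (SE 0.57, adjusted p 2.3e-05) per the authors' deposited table. Itga5, the fibronectin receptor chain, was at 2.03 (SE 0.49, adjusted p 0.0010), Itga1, a collagen receptor chain, at 2.45 (SE 0.76, adjusted p 0.012), and Itgb5 at 0.70 (SE 0.23, adjusted p 0.019) per the authors' deposited table. Of 22 focal adhesion genes, 3 rose and 0 fell, among them Actn1 at 1.71 (adjusted p 3.8e-06) and Vcl at 0.74 (adjusted p 0.0022) per the authors' deposited table. These encode an actin crosslinker and vinculin. The other plakins had 2 of 5 lower, Eppk1 at -1.28 (adjusted p 0.00016) and Ppl at -1.07 (adjusted p 0.016) per the authors' deposited table. Of 19 basement membrane genes 2 rose and 2 fell. Col4a5 at -2.18 (adjusted p 0.00029) and Col4a6 at -2.43 (adjusted p 0.0026), a pair of type IV collagen chains found in epidermal basement membrane, were lower, and Nid2 at 3.38 (adjusted p 0.021) and Col4a3 at 3.95 (adjusted p 0.032) were higher per the authors' deposited table.

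In the other comparisons few of these genes passed. Eppk1 fell in non-lesional over non-UV-exposed skin, by 1.09 on the log2 scale (adjusted p 0.010), per the authors' deposited table. It was the only 1 of 66 there, a share close to the 1.66% of all genes. In GZ21T over placebo lesions 2 of 58 fell and 0 rose, a share close to the 3.61% of all genes. The 2 were Actn1 at -1.04 (adjusted p 0.035) and Itgav at -0.68 (adjusted p 0.041), per the authors' deposited table. Both calls were lost with no filter on low counts. The 9 other integrins tested there had a median of -0.95 against -0.06 for all genes. The placebo lesion libraries also enter the comparison with non-UV-exposed skin, so opposite signs in the pair are not independent. Perilesional over non-lesional and lesional over perilesional skin had 0 of 66 passing, where 0.112% and 0.533% of all genes did.

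**Figure D4:**
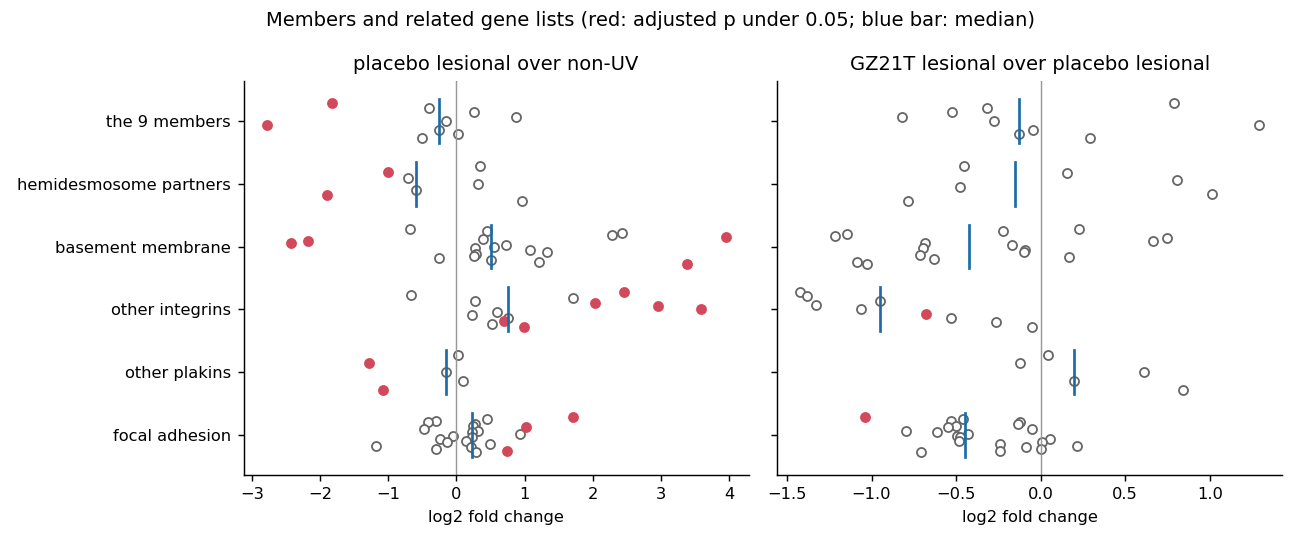
Log2 fold change of the 9 members and of 5 lists of related genes in 2 comparisons, with 1 point per tested gene, red where the adjusted p is under 0.05, and a blue bar at each list's median. In placebo lesions over non-UV skin the 13 other integrins tested have a median of 0.75 with 6 red points. In GZ21T over placebo lesions the 9 tested have a median of -0.95 with 1 red point. Both comparisons use the placebo lesion libraries, so opposite signs between the panels are not independent.

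Markers of cell types were read beside these results, because the RNA came from bulk skin. Of all genes, 18.3% passed in placebo lesions against non-UV-exposed skin, 3.61% in GZ21T over placebo lesions and 1.66% in non-lesional over non-UV-exposed skin. The share was 0.112% in perilesional over non-lesional, 0.533% in lesional over perilesional and 0.625% in perilesional over non-UV-exposed skin. In placebo lesions against non-UV-exposed skin the general basal keratin Krt5 was at 0.02 (SE 0.36, adjusted p 0.98) per the authors' deposited table, turning to -0.06 when centred. Its partner Krt14 rose by 0.95 (SE 0.35, adjusted p 0.038) per the authors' deposited table, a call lost when centred (adjusted p 0.060). The 7 basal markers had 2 higher and 0 lower with a median of 0.02 beside the lower Krt15. Of 8 suprabasal markers 4 fell and 0 rose (median -0.90), and in GZ21T over placebo lesions 4 rose and 0 fell (median 1.28). Both comparisons use the placebo lesion libraries, so their opposite signs are not independent. The same holds for the hair shaft markers below, whose comparisons share groups. The follicle is the other known site of Krt15. Hair follicle stem cell markers had 2 of 15 lower and 1 higher in lesions, a share close to that of genes in general. Lgr6 was at -2.59 (adjusted p 0.011), Nfib at -0.83 (adjusted p 0.0028) and Tbx1 at 1.85 (adjusted p 0.0017) per the authors' deposited table. In non-lesional over non-UV-exposed skin, where Krt15 fell, 0 of 14 of these markers passed and 10 had negative estimates (median -0.37). Hair shaft and inner root sheath markers had negative estimates for 13 of 13 in both comparisons, with medians of -1.50 in non-lesional and -2.41 in lesional skin and 0 passing. Skeletal muscle markers had positive estimates for 13 of 13 in both, with medians of 1.65 and 1.77 and 0 passing, and endothelial markers had 3 of 8 higher in lesions. Sebaceous markers had 3 of 9 higher there, adipocyte markers 1 of 6 higher, and leukocyte markers 1 higher and 1 lower of 7, while 0 of 8 fibroblast, 0 of 8 Schwann cell and 0 of 3 melanocyte markers passed. In lesional over perilesional skin 12 of 13 hair shaft markers had positive estimates (median 3.43), and in GZ21T over placebo lesions 10 of 10 did (median 1.74), with 0 passing in either. In perilesional skin, where 5 members had their lowest estimate, 13 of 13 hair shaft markers had negative estimates over non-lesional skin (median -4.18) and over non-UV-exposed skin (median -5.52), and 1 of them, Tchh, passed in each. Of 9 sebaceous markers 2 were higher in perilesional over non-lesional skin, Elovl3 and Mgst1. The 7 basal markers all had negative estimates in perilesional over non-lesional skin (median -0.29), with 0 passing. The part of hair follicle, sebaceous gland, muscle or vessel content in the values of the members was not tested.

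Loci of the members lie on several chromosomes of GRCm38, per GENCODE M21. Chromosome 11 holds Itga3 (95044474 to 95076801, - strand), Itgb4 (115974709 to 116008412, + strand) and Krt15 (100131758 to 100135928, - strand), the last with 1 coding transcript of 8 exons and 1700 bases. Chromosome 1 holds Lamb3 (193207699 to 193343878, + strand) beside Dst. Itga6 is on chromosome 2 (71745616 to 71858416, + strand) and Itgb1 on chromosome 8 (128685654 to 128733200, + strand). Plec lies on chromosome 15 (76170974 to 76232574, - strand) with 21 coding transcripts and overlaps Parp10 on the same strand. Lama3 spans 249195 bases and has 2 coding transcripts. Dst, Lamb3, Itga6, Itgb4 and Lama3 overlap antisense genes, and whether counting used strand is not given in the sources used here, so reads of those partners may be part of their values. Of the tested genes that flank the members, 10 of 32 passed in lesional over non-UV-exposed skin, against 18.3% of all genes, and 1 of 26 in non-lesional over non-UV-exposed skin, against 1.66%.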

How the data were processed

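The labels' protocols name an RNeasy kit for the RNA and TruSeq Stranded Total RNA libraries. The submitters' processing notes name Trim Galore, the build GRCm38 (mm10) and DESeq2. Which aligner, counter, annotation, software versions and model formula were used is not given in the sources used here. In all 4 tables were deposited, with 1 comparison each. Each holds a log2 fold change per the file headers. Each holds a Wald statistic, a score given by the authors as fold change over SE. The p-value and adjusted p-value are those the authors deposited from DESeq2, with missing adjusted values for low counts. The tables used here hold no counts or values per library, 0 such columns went unused, and depth is unknown.

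SE was computed as log2 fold change over Wald statistic, and 95% intervals are normal. 25 symbols turned into dates were removed in 3 tables and 27 in the GZ21T table. The table named for perilesional and lesional skin has lesional and back skin in its header. Of 1195 genes at 0 in perilesional over non-lesional skin, 271 were negative in it, and of 1423 at 0 between non-lesional and non-UV skin, 0 were, so the header was followed. Back was taken as the non-UV group by elimination. The table of placebo over GZ21T was turned in sign. 5 further comparisons were derived by adding or subtracting deposited fold changes, assuming 1 fit with the group alone. For lesional over perilesional and GZ21T lesional over non-lesional skin the variance then follows exactly. For the other 3 it is at most the sum of the deposited variances, which was used. Their p-values are two-sided normal tails, and adjusted p under 0.05 was called. Benjamini-Hochberg adjustment ran over genes with a deposited adjusted p in lesional over non-UV skin, perilesional over non-lesional skin or both, depending on the contrast. These were 15187 to 15192 genes. Only the derived comparisons and their adjustment were tested on simulated data, with independent group means of equal variance. That simulation takes the fit with the group alone as given, so it cannot check it. The software was python 3.11.15, numpy 2.4.6, pandas 2.3.3 and scipy 1.17.1.

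Named were the 9 members, up to 4 called genes of smallest adjusted p per pathway list and comparison, Col17a1, Cd151, Krt5 and Krt14, and the 5 genes nearest to Krt15, Itgb4 and Lamb3. Some genes that the rule takes are not reported here. The called follicle stem cell, hair shaft and sebaceous markers were named after their values were seen. The members and the 17 lists were chosen with earlier results of these data known. Alternatives were no filter, adjustment over the 10899 genes tested everywhere, a robust null spread, centring, Benjamini-Yekutieli adjustment and another variance.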

Additional observations from a re-analysis of the deposited data

How the results depend on the processing

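In lesional over non-UV skin the count of members called went from 2 to 0 with the null spread from the genes and to 3 when centred. With equal shares of variance it went from 0 to 3 in perilesional over non-UV skin and from 0 to 2 in GZ21T lesional over non-UV skin. Under the other alternatives run it did not change in any comparison. Among the 9 members and the genes named whatever their result, centring on the median turned the sign of 4 small values, Cd151 in perilesional over non-lesional skin (-0.0205), Lamb3 (-0.0606) and Krt5 (-0.0585) in lesional over non-UV skin, and Lama3 in GZ21T over placebo lesions (0.0121). Of the members' values, 395 kept direction and side of the threshold, 6 gained a call, 2 lost one and 2 changed sign. Counts over all genes moved more. With the null spread, genes higher and lower went from 160 and 75 to 99 and 28 in non-lesional over non-UV, from 1543 and 1242 to 13 and 1 in lesional over non-UV, from 14 and 3 to 2 and 0 in perilesional over non-lesional, from 143 and 250 to 0 and 0 in GZ21T over placebo lesions, from 47 and 34 to 2 and 10 in lesional over perilesional, and from 71 and 24 to 35 and 6 in perilesional over non-UV skin. Benjamini-Yekutieli adjustment gave, in that order, 80 and 13, 579 and 462, 0 and 0, 7 and 9, 4 and 19, and 29 and 3, and in GZ21T lesional over non-UV skin 24 and 2 against 47 and 11. With no filter GZ21T over placebo lesions had 82 and 127. Centring gave 1244 and 1607 in lesional over non-UV skin, 201 and 142 in GZ21T over placebo lesions and 35 and 43 in lesional over perilesional skin. The sum of variances left 0 and 0 in the last. Equal shares gave 394 and 307 in lesional over non-lesional, 614 and 727 in perilesional over non-UV and 365 and 239 in GZ21T lesional over non-UV skin. Beyond the construction of each alternative, the cause was not tested. No paired analysis was possible because the tables hold no values per library, and leaving out replicates was not run for the same reason. Depth is unknown, so what it limits cannot be given.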
